A study of Mus musculus with 6 samples.

Results

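The chromosome 4 Prame and Oog cluster is a tandem array of germline and oocyte genes, and 10 of its genes are described here out of 24028 genes in the count table. The members are Gm13057, BC080695, Pramef25, Gm13083, Gm13078, Pramef6, Pramef17, Pramel4, Pramel5 and Oog4. They were taken by symbol from the stretch between 143.4 and 144.4 Mb of mouse chromosome 4, and they had been picked with their counts in induced and uninduced cells in view. The induced values below therefore describe the members and carry no test.

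Expression was measured by polyA RNA-seq in C2C12 cells, a mouse myoblast line, carrying MMH under doxycycline control. MMH is a codon-altered chimera that joins the homeodomains of mouse Dux to the carboxy-terminal part of human DUX4, and the line, labelled MMH6, is a single clone. The induced group is 3 separate cultures of that clone given 2 µg/ml doxycycline, and the uninduced group is 3 cultures of the same clone without doxycycline. The series design gives the induction as 18 hours, whereas the sample protocols give 36 hours. All cultures of both groups grew in 2.6 µg/ml puromycin, and no doxycycline-treated cells lacking MMH were analysed here, so an effect of the drug itself and an effect of MMH cannot be told apart. The 6 libraries held 21503384 to 24489531 counts each. All 6 myoblast markers examined had counts in both groups, and edgeR called 4 lower and 1 higher (Musk, 57.0 and 78.4 CPM, log2 change 0.46 but -0.50 with library size as sole scaling), with Chrna1 not called (347 and 340 CPM). Des was at 1042 ± 8.49 CPM (SD, n = 3) uninduced and 689 ± 11.5 CPM (SD, n = 3) induced, and Myod1 was at 178 ± 4.09 and 37.1 ± 0.896 CPM. CPM is the share of a library's scaled total expressed in the usual per-million unit, with library totals scaled by the trimmed mean of M-values (TMM).

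Prame genes encode leucine-rich repeat proteins related to human PRAME, a tumour antigen that acts as a substrate receptor of a Cullin-2 ubiquitin ligase and dampens retinoic acid receptor signalling in cell models. The family expanded in rodents by repeated tandem duplication, and many mouse copies are expressed in oocytes, early embryos or testis. The Oog genes, or oogenesins, belong to the same family and are known from oocytes and the early cleavage embryo. DUX4 in human cells and Dux in mouse cells are homeodomain activators of cleavage-stage genes, among them Prame family genes. The biochemical role of most single copies is unknown.

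The members spanned 843.3 kb, from the start of Oog4 at position 143437164 to the end of Pramel5 at position 144280466 (RefSeq, GRCm38.p6). Of the 10 genes, 5 lie on the plus strand and 5 on the minus strand, with gaps between neighbouring members of 9.2 to 201.3 kb (median 64.8 kb). In RefSeq the window holds 40 genes, of which 26 are protein coding and 14 are pseudogenes. The count table covers 23 of them, so 13 other genes stand beside the members. The protein-coding genes Gm13040, Gm13043 and Pramel23 are not analysed here.

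The members fell into families of near copies. Coding regions of Gm13057, BC080695 and Pramef25 were 94.4 to 96.9% identical in global alignments, and those of Pramef6, Gm13078 and Gm13083 were 89.9 to 95.7% identical. Pramel4 and Pramel5 shared 85.2% of their coding bases. Pramef17 stood alone among the members at 56.7 to 66.2%, but it was 99.3% identical to Gm13128, which lies farther along the window. Oog4 was the most distant, at 56.1 to 59.9% to any other member, and was closer to C87977 (78.2%) and Gm13023 (78.0%). Pairs from different families had a median identity of 59.75% over 38 pairs. These relations matter for the counts, because reads from a stretch that copies share cannot be assigned to 1 gene.

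**Figure D1:**
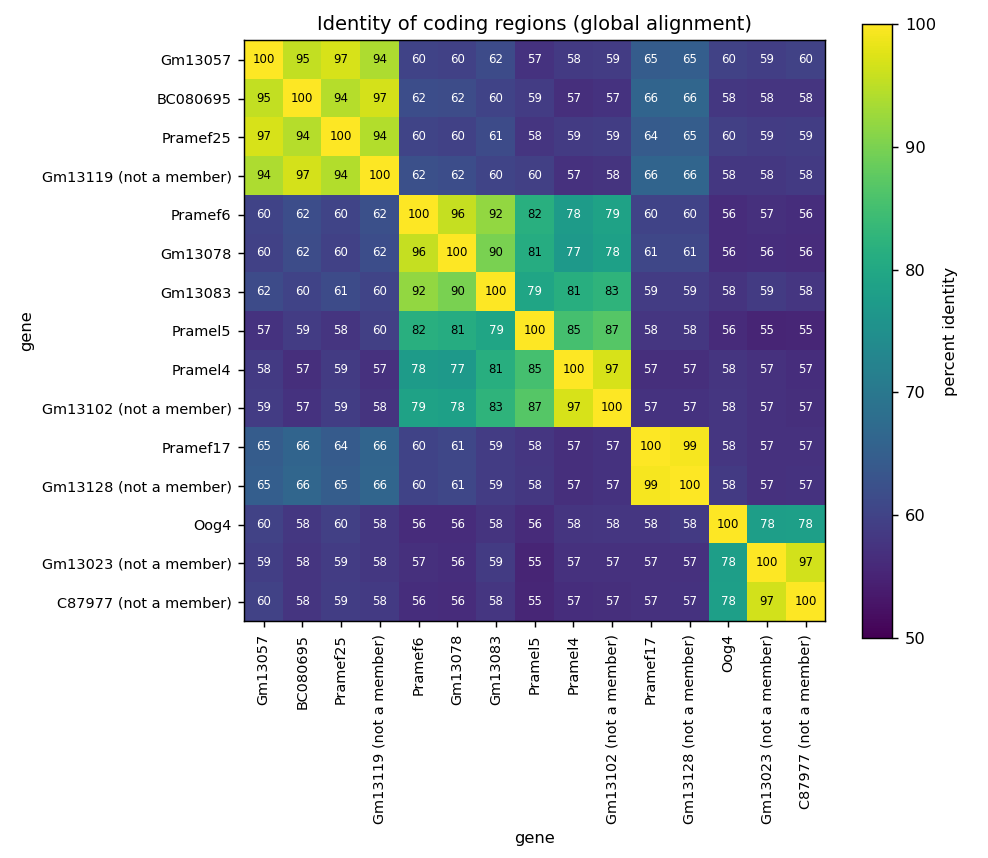
Percent identity of coding regions for the 10 members and 5 other genes of the window, each cell giving 1 pair of genes and the colour scale running from 50 to 100%. The blocks of high identity are the Gm13057, BC080695 and Pramef25 family, the Pramef6, Gm13078 and Gm13083 family with Pramel4 and Pramel5 beside it, and the pair Pramef17 and Gm13128.

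Shared stretches were measured directly by cutting each member's GENCODE transcript into every 50-base window and asking whether another gene's transcript holds the same bases. For Gm13057 every window occurred in Gm13040, and for Pramel4 94.1% occurred elsewhere, mainly in Gm13102. The share was 73.5% for Pramef17, 63.5% for Pramef25, 55.3% for BC080695, 35.2% for Pramef6, 27.1% for Pramel5, 25.6% for Gm13083 and 14.8% for Gm13078. Oog4 was nearly free of shared sequence at 0.8%. The GENCODE model of BC080695 also begins at the start of Gm13057, so that the models overlap there. No source used here says how the authors' counting treated reads with several matches, so counts of single copies other than Oog4 are uncertain. Where each read is counted once, the members' sum is not changed by how reads are split among members. Dropping reads with several matches, or counting them at each match, can change it, as can reads shared with other genes. Among the genes outside the member list that shared most with a member, Gm13040, Gm13102 and Gm13128 shared the most. Gm13043 was also close to Gm13057, at 97.0% of coding bases, and the windows that this pair shares were not counted. The part of such sharing in the sum was not tested.

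The promoters are printed to show which members share one and which do not. Each sequence is the last 180 bases before the RefSeq start (GRCm38.p6), 5′ to 3′ on the gene's own strand, with capitals on AATCA or its reverse complement TGATT, the core recognised by Dux-type homeodomains, and on TATAAA. Gm13057 (chr4:143551520-143551699, plus strand) and BC080695 (chr4:143567287-143567466, plus strand) had the same sequence over all 300 bases of the RefSeq promoter window, and Gm13040 had it too. Gm13119 (chr4:144357784-144357963, plus strand) is a neighbour outside the member list and holds a diverged form of that promoter.
Gm13057 and BC080695: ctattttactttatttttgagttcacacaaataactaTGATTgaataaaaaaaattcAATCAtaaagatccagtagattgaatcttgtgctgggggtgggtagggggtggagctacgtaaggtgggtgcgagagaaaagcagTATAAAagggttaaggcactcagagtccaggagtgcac
Gm13119: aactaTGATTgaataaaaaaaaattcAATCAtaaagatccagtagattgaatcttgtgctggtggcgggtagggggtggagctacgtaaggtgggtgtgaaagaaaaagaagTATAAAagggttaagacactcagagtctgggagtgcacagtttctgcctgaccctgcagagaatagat

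Promoters of the mid-level family members Gm13078 (chr4:143719271-143719450, plus strand) and Pramef6 (chr4:143900381-143900560, minus strand) were 84.4% identical. Those of the low-level pair Pramel4 (chr4:144058945-144059124, plus strand) and Pramel5 (chr4:144280467-144280646, minus strand) were 83.4% identical and held no capitalised letters. Oog4 (chr4:143450325-143450504, minus strand) is shown as the member whose transcript is nearly unique.
Gm13078: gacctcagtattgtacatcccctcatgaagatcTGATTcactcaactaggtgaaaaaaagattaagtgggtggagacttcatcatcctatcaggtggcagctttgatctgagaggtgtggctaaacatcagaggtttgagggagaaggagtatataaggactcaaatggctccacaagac
Pramef6: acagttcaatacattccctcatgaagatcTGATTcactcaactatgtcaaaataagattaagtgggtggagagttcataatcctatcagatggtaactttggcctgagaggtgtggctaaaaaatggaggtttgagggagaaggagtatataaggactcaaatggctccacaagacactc
Pramel4: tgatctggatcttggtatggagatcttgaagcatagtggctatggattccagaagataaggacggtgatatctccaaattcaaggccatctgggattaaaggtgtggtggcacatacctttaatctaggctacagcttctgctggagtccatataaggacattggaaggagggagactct
Pramel5: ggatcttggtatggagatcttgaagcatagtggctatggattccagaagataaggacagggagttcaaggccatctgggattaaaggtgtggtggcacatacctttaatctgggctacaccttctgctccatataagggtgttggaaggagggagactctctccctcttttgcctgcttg
Oog4: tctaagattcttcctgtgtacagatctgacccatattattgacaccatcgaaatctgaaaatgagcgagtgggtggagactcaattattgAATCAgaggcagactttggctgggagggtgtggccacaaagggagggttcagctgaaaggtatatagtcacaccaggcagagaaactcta

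Motif searches covered both strands of the 300-base RefSeq windows, 250 bases before to 50 bases after each start, over 27025 genes. The letters AATCA were found in 7 of 10 member promoters, in 9 of 12 promoters found for the other genes of the window and in 37.68% of all promoters. The 3 members without it were Pramef25, Pramel4 and Pramel5, and Pramef25 was among the 3 highest members by induced level. The paired form TGATNNAATCA, written from the Dux-type site, was found in 0 of 10 member promoters and in 0.23% of all promoters. The DUX4-type form TAATNNAATCA was found in 0 of 10 member promoters and in 0.36% of all promoters. These letters were searched in the promoter windows only.

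The TATA box TATAAA was found in 2 of 10 member promoters, those of Gm13057 and BC080695, at bases -38 to -33 before the start. It was also found in 5 of 12 promoters of the other window genes (Gm13084, Gm13103, Oog3, Oog2 and Gm13119) and in 14.16% of all promoters. A related run, TATATA, was chosen after the promoters had been read and was found in 4 of 10 member promoters. It lay at bases -30 to -25 in Oog4 and Gm13078, -34 to -29 in Pramef6 and -162 to -157 in Gm13083. The same run was found in 6 of 12 promoters of the other window genes and in 5.94% of all promoters. TTCAATCA contains AATCA and was also chosen after reading. It was found in 2 of 10 member promoters, in 1 of 12 promoters of the other window genes and in 0.65% of all promoters. In Gm13057 and BC080695 it occurred on both strands, at bases -143 to -136 and -126 to -119, with 9 bases between the copies. Gm13119 held the same arrangement with 10 bases between, at bases -175 to -168 and -157 to -150. Across all 45 pairs of members the promoter windows had a median identity of 48.3%, and the 3 pairs named above were the most alike.

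In uninduced cells the members ran from no counts (Oog4 and Pramel4) to 59.1 CPM (Gm13057), and in induced cells they made up a large part of the polyA RNA counted. The summed members took 0.0132%, 0.0147% and 0.0122% of counts in the 3 uninduced libraries, and 9.27%, 9.73% and 9.37% in the 3 induced libraries. The mean share was 0.0134 ± 0.00129% (SD, n = 3) against 9.45 ± 0.239% (SD, n = 3), and the groups lay far apart. Summed levels were 95.6 ± 8.86 CPM (SD, n = 3) uninduced and 132105 ± 3019 CPM (SD, n = 3) induced, a ratio of 1382 (95% exact binomial counting interval 1352 to 1409, which covers counting error only). With library size as sole scaling this ratio was 9.47 on the log2 scale in place of 10.43. Without Gm13057 the other 9 members rose from 36.5 to 46461 CPM in sum, a ratio of 1273. In these bulk libraries, more cells with the transcripts and more transcript per cell cannot be told apart.

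All 10 members passed the filter on low counts, and in all 10 every induced library lay above every uninduced library. Over all 12969 tested genes that separation held for 41.5%. Because the members were chosen on this contrast, nothing is read from their count. The filter asked for about 10 counts (0.434 CPM before TMM scaling) in at least 3 libraries, and Oog4, Pramel4, Pramel5 and Pramef17 passed it only with their induced counts. The median ratio over the members was 10.34 on the log2 scale, with a range of 8.22 to 11.22, against a median of -0.01 over all tested genes. The values of Oog4 and Pramel4 in it are lower bounds, so the median is one too.

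**Figure D2:**
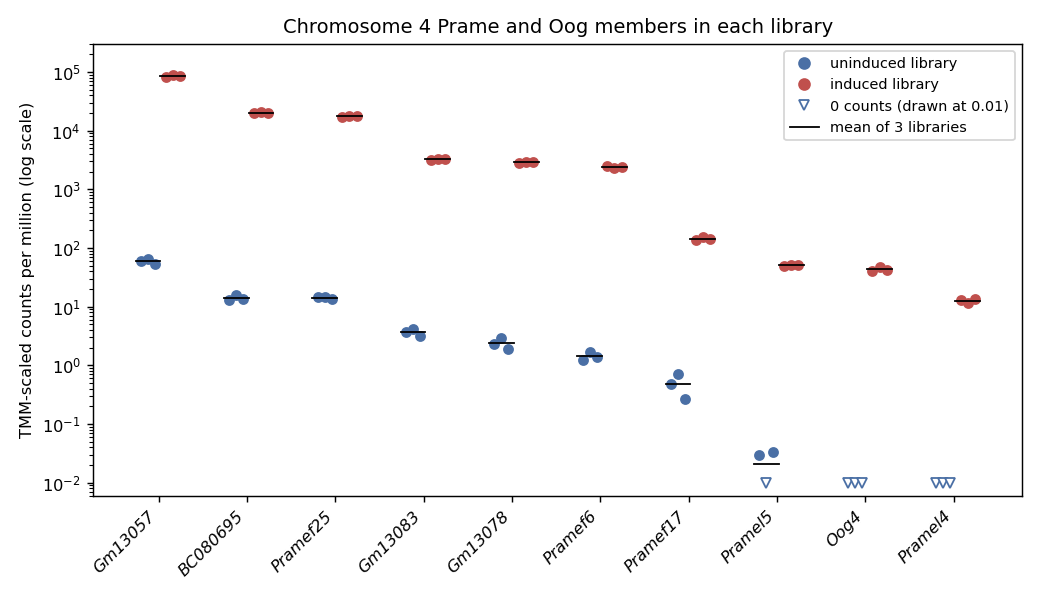
TMM-scaled CPM (log axis) of each member in the 3 uninduced and 3 induced libraries, with short lines at the group means and open triangles for libraries with 0 counts drawn at 0.01. Induced and uninduced points are separated by more than 2 orders of magnitude for every member, and points of 1 group lie close together except for uninduced Pramef17 and Pramel5, which rest on few counts.

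Gm13057 was the highest member. It stood at 58.9, 64.6 and 53.8 CPM in the uninduced libraries and at 83750, 88093 and 85089 CPM in the induced libraries. These are 5609 uninduced and 4313244 induced counts in all, and the ratio of means was 1448 (95% counting interval 1409 to 1485). In each of the 3 induced libraries it was the gene with the second highest count of all (rank 2), up from ranks 2566 to 3136 without doxycycline. All of its transcript is shared with Gm13040, and the part of that locus in this level was not tested.

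BC080695 and Pramef25, near copies of Gm13057, followed. The uninduced libraries had 13.2, 15.9 and 13.5 CPM of BC080695, and the induced libraries had 19643, 20623 and 20200 CPM, a ratio of 1421 (interval 1348 to 1501). Pramef25 was at 14.7, 14.9 and 13.3 CPM uninduced and at 17266, 17756 and 17578 CPM induced, a ratio of 1227 (interval 1162 to 1294). For both genes every induced library lay far above every uninduced library, and they ranked 10 and 11 by counts in each induced library. BC080695 has the promoter of Gm13057 letter for letter and a transcript of nearly equal length (2102 against 2093 bases), and its counts were 4.21 to 4.27 times lower in induced cells and up to 4.48 times lower in uninduced cells. The ranges of this ratio in the 2 groups overlap.

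Gm13083, Gm13078 and Pramef6 formed a middle tier. Gm13083 was at 3.65, 4.21 and 3.21 CPM uninduced and at 3196, 3296 and 3249 CPM induced, a ratio of 880.0 (interval 792 to 979). Gm13078 had 2.27, 2.94 and 1.90 CPM uninduced and 2790, 2949 and 2887 CPM induced, a ratio of 1211 (interval 1062 to 1386). For Pramef6 the values were 1.26, 1.68 and 1.41 CPM uninduced and 2464, 2349 and 2386 CPM induced, a ratio of 1655 (interval 1406 to 1980). Within this family of copies, the gene with the most uninduced counts had the smallest ratio and the gene with the fewest had the largest. Gm13083 had 2.28 to 2.90 times the counts of Pramef6 in uninduced libraries and 1.30 to 1.40 times in induced libraries, ranges that do not overlap. These genes share 50-base stretches with each other, and the part of that sharing in the ratios was not tested.

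Pramef17, the member closest to Gm13128, was at 0.479, 0.712 and 0.262 CPM uninduced and at 136, 155 and 141 CPM induced. The ratio of means was 298 (interval 222 to 405), the smallest among members with a defined ratio. Its uninduced values rest on 16, 22 and 8 counts. The interval does not reach that of any other member with more than 3 uninduced counts.

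Pramel5, Oog4 and Pramel4 were essentially silent without doxycycline. Pramel5 had 1, 0 and 1 counts uninduced and 854, 788 and 901 counts induced, or 50.5 ± 1.59 CPM (SD, n = 3). Its ratio of pooled counts was 2391, with a counting interval of 661 to 19757 that leaves its place among the members undetermined. Oog4, the oogenesin of the set, had 0 counts in each uninduced library and 707, 734 and 734 counts induced, or 43.3 ± 3.74 CPM (SD, n = 3). Set against 3 counts summed over the uninduced group (0.0316 CPM), the limit that 0 counts allow, it was at least 1364-fold higher. Its counts are the cleanest of the set, since almost none of its transcript is shared. Pramel4 likewise had 0 uninduced counts and 225, 177 and 240 induced counts, at least 402-fold higher against the same limit. With 1 uninduced library left out the limit rests on fewer counts, and these bounds go from 10.41 to 9.78 (Oog4) and from 8.65 to 8.02 (Pramel4) on the log2 scale. Gm13102 had 224, 175 and 239 counts in the same libraries, within 1.00 to 1.01 times those of Pramel4, so the pair cannot be taken as separate measurements.

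Per kilobase of transcript, which allows levels to be compared between genes, induced members covered a wide range. Gm13057 reached 40919 ± 1063 CPM per kb (SD, n = 3), Pramef25 10412 ± 147 and BC080695 9589 ± 234. The middle tier lay at 1365 ± 37.9 for Gm13078, 1318 ± 20.3 for Gm13083 and 1220 ± 30.0 for Pramef6. Below them came Pramef17 at 82.2 ± 5.63, Oog4 at 23.8 ± 2.06, Pramel5 at 23.5 ± 0.740 and Pramel4 at 5.53 ± 0.509 CPM per kb. In this order Gm13078 and Gm13083 overlapped, as did Oog4 and Pramel5, and the other neighbours did not. The Gm13057, Pramef6 and Pramel4 families of near copies thus sat on separate tiers, although Oog4, outside them, overlapped Pramel5. The part of shared reads in these tiers was not tested. Transcript lengths are from GENCODE M21, since no source used here gives the lengths behind the authors' counts.

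The order of the members was nearly the same before induction. Uninduced levels ran from 28.3 ± 2.58 CPM per kb (SD, n = 3) for Gm13057 through 8.48 ± 0.524 for Pramef25 and 6.75 ± 0.716 for BC080695 to 0.276 ± 0.128 for Pramef17. Gm13083 (at most 1.71 CPM per kb uninduced) and Gm13078 (at most 1.40) changed places between groups, and their ranges overlapped in both. Compared within each library, Gm13083 lay above Gm13078 per kb in every uninduced library and below it in every induced library. As a share of all member counts, Gm13057 made up 61.8 ± 0.472% (SD, n = 3) uninduced and 64.8 ± 0.238% (SD, n = 3) induced. BC080695 made up 14.8% and 15.3%, and Pramef25 15.0% and 13.3%. The shares that moved most in relative terms among members with more than 3 uninduced counts were those of Pramef17, from 0.495% to 0.109%, and Gm13083, from 3.85% to 2.46%.

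**Figure D3:**
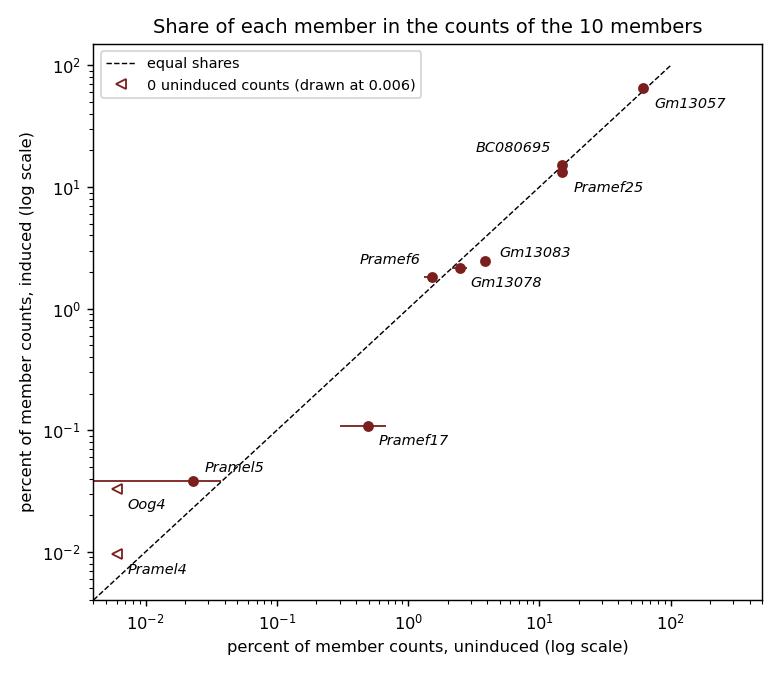
Percent of the members' summed counts held by each member, uninduced on the horizontal and induced on the vertical axis (both log), with points at the mean of 3 libraries, bars from the lowest to the highest library and a dashed line at equal shares. Most members lie near the line, with Gm13083 and Pramef17 below it, and Oog4 and Pramel4 have 0 uninduced counts and are drawn at 0.006.

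Replicate spread was small in induced cells. The coefficient of variation over the 3 induced libraries ran from 1.42% (Pramef25) to 9.20% (Pramel4), with a median of 2.69%. For 8051 other tested genes at or above the level of the lowest member the median was 4.16%. These genes were not matched to the members in level, so the medians are not read as a difference. In the uninduced libraries the 7 members with more than 3 counts varied by 6.18 to 46.4% (median 13.5%), with Pramef17 the most variable.

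The other 13 genes of the window are those that remained after the members had been picked, so they are not independent of that choice. In total they moved from 36.1 to 8467 CPM, and nearly all of that was Gm13119, without which the sum went from 28.6 to 293 CPM. Of the 13, 6 passed the filter on low counts, and edgeR's quasi-likelihood test with Benjamini-Hochberg adjustment called all 6 higher. Over all genes the same test called 41.3% higher and 41.2% lower (5351 and 5347 genes). Using library size as the sole scaling moved the median log2 change of all genes from -0.01 to -0.97 and the calls to 1977 higher and 9949 lower, and values here are relative to the TMM scaling. Gm13102, Gm13128, Gm13023 and C87977 passed the filter only with their induced counts and so had to be higher. Neither the 6 of 6 nor the p-values given below for genes among these 4 are read as support. Gm13102 and Gm13128 also share 95.8% and 73.8% of their 50-base windows with other genes, mainly Pramel4 and Pramef17, and are not separate measurements from those members. The p-values here measure the spread between cultures of 1 clone.

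Gm13119, a further copy of the Gm13057 family, was at 6.76, 7.99 and 7.83 CPM uninduced and at 7988, 8306 and 8230 CPM induced. The fitted log2 change was 10.09 (SE 0.065, edgeR adjusted p = 1.07e-32). SE here and below was derived from the test, as the absolute log2 change over the square root of its F statistic. Its counts lay below those of BC080695 by 1.72 to 1.99 times in uninduced and 2.45 to 2.48 times in induced libraries. Gm13128, the near twin of Pramef17, was at 0.269, 0.518 and 0.197 CPM uninduced and 83.8, 97.8 and 87.7 CPM induced (log2 change 8.08, SE 0.13, edgeR adjusted p = 5.33e-23). Pramef17 had 1.33 to 1.78 times the counts of Gm13128 uninduced and 1.59 to 1.62 times induced, ranges that overlap.

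Pramef8, at the edge of the window, had a smaller change than any member, from a starting level within the members' range. It had 29.3, 27.9 and 27.2 CPM uninduced and 182, 182 and 187 CPM induced, a log2 change of 2.70 (SE 0.047, edgeR adjusted p = 3.56e-24). None of its 50-base windows occurred in another gene's transcript. C87977 went from 0.0645 to 1.72 ± 0.473 CPM (SD, n = 3; log2 change 4.65, SE 0.462, edgeR adjusted p = 1.95e-09). Gm13023 went from 3 counts in all to 4.02 ± 1.56 CPM (SD, n = 3), a ratio of 125 with a counting interval of 42.1 to 610 (edgeR adjusted p = 3.52e-11). These are the nearest relatives of Oog4 in the window, and per length both lay below its induced 23.8 CPM per kb, at 0.913 (C87977) and 2.22 (Gm13023). The remaining genes had few counts and did not pass the filter. Gm13088, Gm13084, Gm13103, Gm13125, Pramef12 and Oog2 had 0 uninduced counts and 3 to 22 induced counts in all. Without the filter, and also with DESeq2, 5 of these 6 were called higher (all but Oog2), which takes the window from 6 to 11. Oog3, another oogenesin, had 0 counts in every library.

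**Figure D4:**
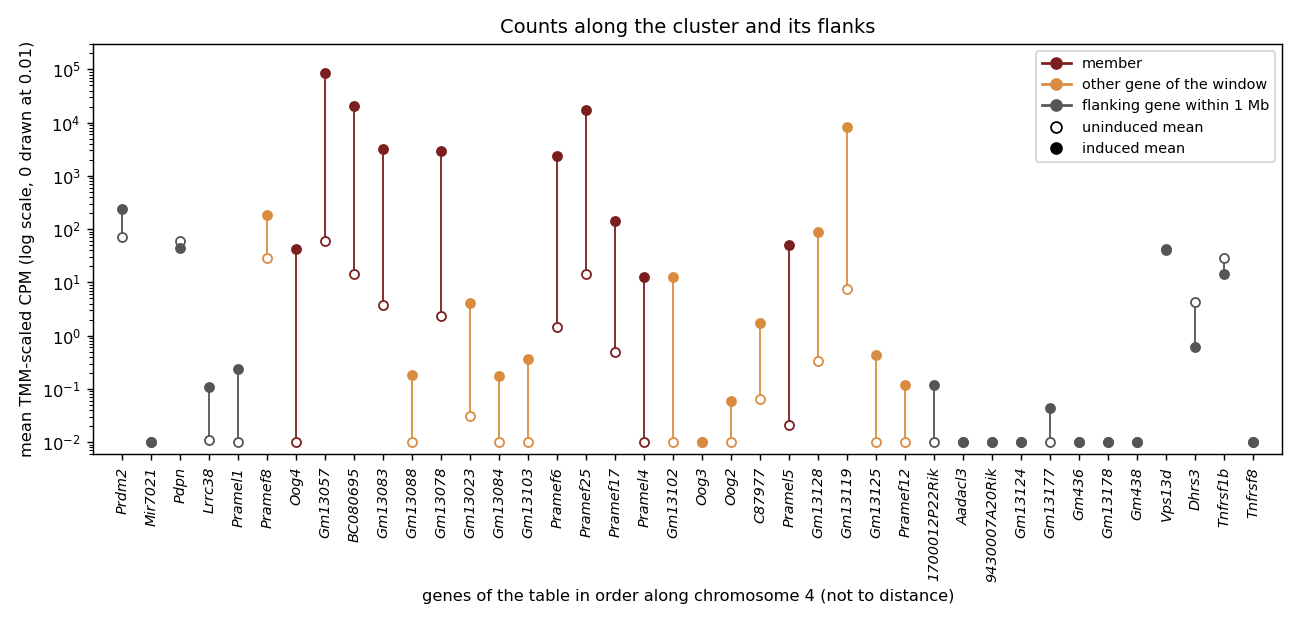
Mean TMM-scaled CPM (log axis, 0 drawn at 0.01) of the genes of the table in their order along chromosome 4, with open circles for uninduced and filled circles for induced means of 3 libraries, members in dark red, other genes of the window in orange and flanking genes in grey. High and nearly silent genes alternate along the window. Most genes on both sides have short or no lines, with longer ones for Dhrs3, which falls, and for Pramel1, 1700012P22Rik and Lrrc38, which rest on few counts.

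Flanking genes within 1 Mb on either side that passed the filter on low counts had fitted log2 changes between -2.78 and 1.73. Of 17 genes there, 8 were without a count in all 6 libraries and 5 passed the filter. The edgeR test called 1 of the 5 higher and 3 lower, against 41.3% and 41.2% over all genes. Without the filter, and also with DESeq2, Pramel1 and 1700012P22Rik were called higher too. They had 0 uninduced counts and 12 and 6 induced counts in all, and Pramel1 is also among the family genes below. Prdm2, a zinc finger histone methyltransferase gene, rose from 71.5 ± 3.71 to 237 ± 9.72 CPM (SD, n = 3 each; log2 change 1.73, edgeR adjusted p = 2.04e-20). Dhrs3, a retinaldehyde reductase gene, fell from 4.26 to 0.604 CPM (log2 change -2.78, edgeR adjusted p = 2.73e-10). Tnfrsf1b, a receptor for tumour necrosis factor, fell from 29.1 to 14.1 CPM (log2 change -1.04, edgeR adjusted p = 1.46e-12). Pdpn, a membrane mucin gene, fell from 59.8 to 45.1 CPM (log2 change -0.41, edgeR adjusted p = 1.03e-07). Vps13d was not called, at 39.9 and 41.6 CPM, but without uninduced replicate 1 it was called higher (edgeR adjusted p = 0.0207), which makes 2 flanking genes called higher, and with library size as sole scaling it was called lower (log2 change -0.90, edgeR adjusted p = 2.27e-09).

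Relatives outside the window were compared by name. By symbol or synonym, 15 other genes were marked as Prame or Oog family, and 10 passed the filter. The edgeR test called 10 higher and 0 lower, beside the 41.3% called higher over all genes. Of these, 5 (C87414, C87499, D5Ertd577e, Gm3139 and Gm3259) passed the filter only with their induced counts and so had to be higher, and the 10 of 10 is not read as support. BC061212 went from 4.12 ± 0.346 to 2891 ± 41.8 CPM (SD, n = 3 each; log2 change 9.45, edgeR adjusted p = 1.07e-32). C87499 had 3 uninduced counts and 63.7 ± 1.06 CPM (SD, n = 3) induced, and C87414 had 0 uninduced counts and 3.96 ± 0.146 CPM (SD, n = 3) induced, at least 125-fold higher. Prame itself, the gene that gives the family its name, was at 0.263 ± 0.0636 CPM (SD, n = 3) uninduced and 0.549 ± 0.182 CPM (SD, n = 3) induced and did not pass the filter. Pramel1, Pramel3, Pramel6 and Pramel7 also failed it, with 12 or fewer counts per group. None of these 5 genes had a group mean above the 0.549 CPM of Prame. Without the filter, and also with DESeq2, Pramel1 and Pramel6 were called higher, which takes the family from 10 to 12. Prame was called higher without induced replicate 1 (edgeR adjusted p = 0.0458) or 2 (edgeR adjusted p = 0.0187). It was tested but not called without uninduced replicate 1 (edgeR adjusted p = 0.0521) or 3 (edgeR adjusted p = 0.0933).

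Oocyte markers outside the Oog genes stayed near the detection limit. Of 16 such genes, 5 were at 0 in every library (Zp3, Figla, Lhx8, Dppa3 and Zar1), and 15 had means under 0.5 CPM in both groups. Their summed level was 0.539 to 0.712 CPM in the uninduced libraries and 3.82 to 4.33 CPM in the induced libraries. The 1 gene that passed the filter, and only with its induced counts, was Gdf9, an oocyte growth factor gene, which rose from 0.298 ± 0.121 to 3.01 ± 0.258 CPM (SD, n = 3 each; log2 change 3.33, edgeR adjusted p = 9.12e-11). The members summed to 132105 CPM in the same induced libraries.

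**Figure D5:**
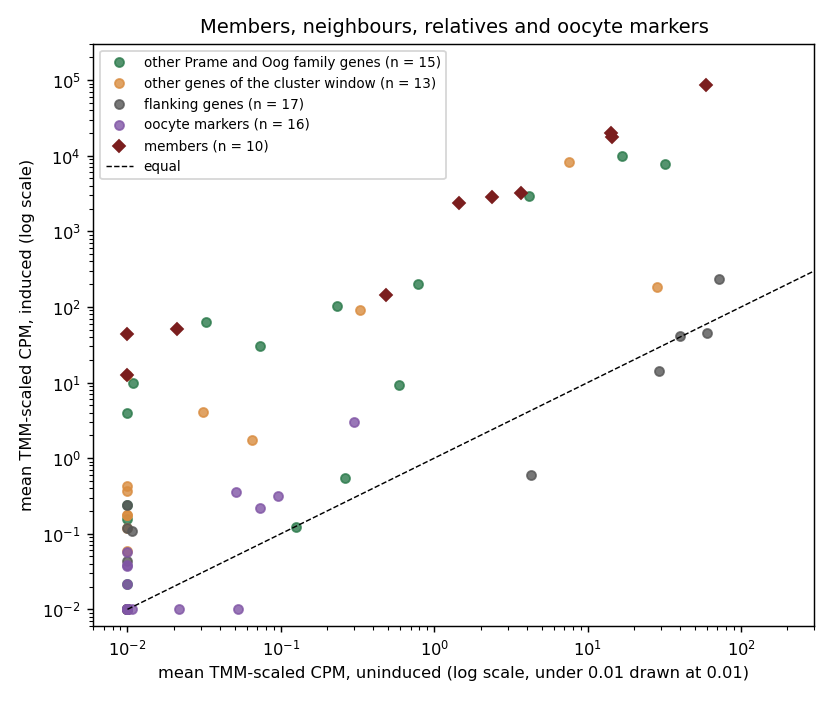
Mean TMM-scaled CPM uninduced (horizontal) and induced (vertical), both on log axes with values under 0.01 drawn at 0.01, for the 10 members, 15 other family genes, 13 other genes of the window, 17 flanking genes and 16 oocyte markers. Members and the higher family genes form a band far above the dashed line of equal levels. Flanking genes that passed the filter lie closer to that line, and most oocyte markers sit in the lower left corner.

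Genes of the Cullin-2 ligase that human PRAME joins, listed with Nedd8 and Ube2m of the cullin-activating step, were all expressed in both groups. Of 6 genes tested, edgeR called 5 lower and 1 higher, against 41.2% lower over all genes. Without induced replicate 2, Tceb2 lost its call (edgeR adjusted p = 0.0558), which leaves 4 lower. With library size as sole scaling 6 were lower and 0 higher, where 9949 of all 12969 genes were lower. Cul2, the scaffold subunit, fell from 46.5 to 33.8 CPM (log2 change -0.46, edgeR adjusted p = 8.88e-08). Rbx1, the RING subunit, fell from 112 to 66.0 CPM (log2 change -0.76, edgeR adjusted p = 3.39e-13), and Nedd8, the modifier that activates cullins, fell from 64.3 to 36.9 CPM (log2 change -0.80, edgeR adjusted p = 3.18e-12). Tceb1, which encodes elongin C, rose from 66.2 to 83.8 CPM (log2 change 0.34, edgeR adjusted p = 4.33e-07), but its direction turned to -0.62 when library size was the only scaling.

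Retinoic acid genes, a pathway that PRAME is known to dampen, changed in both directions. Of 18 genes, 15 passed the filter, and edgeR called 5 higher and 9 lower, against 41.3% and 41.2% over all genes. Among the 5, Aldh1a1 and Crabp1 passed the filter only with their induced counts, so their calls are not read as support. The split was 3 and 10 with upper-quartile scaling and 2 and 11 with library size as sole scaling, under which 1977 genes were called higher and 9949 lower in all. Besides Dhrs3, the larger falls were in Tgm2, a transglutaminase gene induced by retinoic acid, from 4.86 to 0.833 CPM (log2 change -2.54, edgeR adjusted p = 1.72e-11), and Rai1, named for its induction by retinoic acid, from 37.3 to 13.6 CPM (log2 change -1.46, edgeR adjusted p = 1.67e-13). Aldh1a1, which makes retinoic acid, had 0 uninduced counts and 2.95 ± 0.432 CPM (SD, n = 3) induced, at least 94.0-fold higher. Cyp26b1, which degrades it, was at 0.780 and 1.28 CPM (log2 change 0.72, or -0.24 with library size as sole scaling, edgeR adjusted p = 0.0246) and lost its call without uninduced replicate 2 (adjusted p = 0.0804) or induced replicate 1 (adjusted p = 0.261), with upper-quartile scaling (adjusted p = 0.0658), with library size alone (adjusted p = 0.421) and with DESeq2 (adjusted p = 0.132). The number called higher was 3 without uninduced replicate 2. Whether any of these changes is linked to the members was not tested.

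Outside the window, the genes whose profile over the 6 libraries was most like the mean profile of the members were sought among genes with a mean of at least 1 CPM. Likeness was the root-mean-square distance of centred log2(CPM + 0.05). The nearest were Gm20767 on chromosome 13 (distance 0.0808), Gm21312 on chromosome 10 (0.112), BC147527 on chromosome 13 (0.113), Tmem92 on chromosome 11 (0.124) and Gm4340 on chromosome 10 (0.134). Gm20767 went from 4.83 to 4556 CPM, and Gm4340 from 143 to 101760 CPM. The measure mainly reflects the size of the difference between the groups.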

How the data were processed

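Bowtie2 2.2.3, TopHat2 2.0.12 and the mm10 build are named in the submitters' processing notes. No source used here names the read counter, strand setting or treatment of multiply matching reads. The values are whole-number counts per gene in 1 table deposited by the authors, not normalized. Members and lists were chosen with earlier results of these data known. Counts of 12969 genes passing filterByExpr were tested with edgeR 4.0.16 (quasi-likelihood, TMM, Benjamini-Hochberg, threshold 0.05) in R 4.3.3, after a check on simulated counts. TMM factors were 1.39 to 1.40 uninduced and 0.712 to 0.719 induced. The simulated counts did not imitate this difference between the groups. Members were described by counts, CPM and SD, with exact binomial intervals (SciPy 1.17.1, 95%) and a floor of 3 counts. Named besides members were window genes of at least 1 CPM in either group, up to 3 called genes per direction and list by size of change, and the 5 nearest profiles. A gene that this rule names is not reported here. Of 24028 genes, 23968 matched RefSeq. All 10 members matched a RefSeq promoter. Coding identity was computed with Biopython 1.88 on GENCODE M21 coding bases in place of the planned protein identity. Alternatives were other scalings, no filter, DESeq2 1.42.0, a replicate block and each library left out.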

Additional observations from a re-analysis of the deposited data

How the results depend on the processing

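No member's ratio turned direction in 104 alternatives, in which the log2 ratios ran from 7.25 to 11.66. TMM factors differed between the groups, so scaling mattered: under scaling by library size alone the median log2 change of all tested genes went from -0.01 to -0.97, 1977 genes were called higher and 9949 lower, the summed members' log2 ratio was 9.47 in place of 10.43, Cullin-2 partners called higher numbered 0 and retinoic acid genes called higher 2. With upper-quartile scaling the median was -0.16, the summed members' log2 ratio 10.29 and retinoic acid genes called higher 3. Without the low-count filter the genes called higher were 11 in the window, 3 in the flanks and 3 among oocyte markers. DESeq2 called 11, 3 and 2. More genes were tested in both cases. Leaving out each library in turn gave 10.37 to 10.50 for the summed log2 ratio, 9.32 to 9.55% for the induced share, 1 to 2 flanking genes and 3 to 5 retinoic acid genes called higher. Pramel5 ran from a log2 ratio of 10.65 to 11.66, and the lower bounds of Oog4 and Pramel4 fell to 9.78 and 8.02 with 1 uninduced library fewer, since the floor then rests on fewer counts.

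Replicate numbers did not pair the samples: deviations of same-numbered libraries correlated at 0.06, 0.017 and 0.033, although each library correlated best with its own number. With the replicate block the summed members' log2 ratio was 10.44. No pair of members had counts within 5% of each other in all libraries, so entering such copies once gave no value. Depth limits what can be said of uninduced Oog4, Pramel4 and Pramel5, which had 0 to 2 counts in all.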
